A study of Homo sapiens with 4 samples.

Results

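Acetyl-CoA supply genes encode the enzymes and carriers that make acetyl-CoA or move its acetyl group between mitochondria, cytosol and nucleus. The members were the genes ACLY, ACSS1, ACSS2, ACSS3, CRAT, SLC25A1, PDHA1 and DLAT, taken by name, and every line that the authors' deposited table assigns to one of them was used. These 8 genes had 33 regions of the 91107 distinct regions in the authors' deposited table. They were divided into 4 routes: acetate (ACSS1, ACSS2, ACSS3), citrate (ACLY, SLC25A1), pyruvate (PDHA1, DLAT) and carnitine (CRAT).

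Acetyl-CoA is the donor of the acetyl group for histone acetylation. Most of it arises in mitochondria, from pyruvate through the pyruvate dehydrogenase complex and from fatty acids through beta-oxidation, and it cannot cross the inner membrane. The acetyl group leaves as citrate, which ATP-citrate lyase splits again in the cytosol and nucleus, or as acetylcarnitine. Acetate is activated directly by acetyl-CoA synthetases.

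The study used A375, an established human melanoma cell line, and chromatin immunoprecipitation with sequencing for H3K27ac, histone H3 acetylated at a lysine of its tail found at active promoters and enhancers. The vehicle group was 2 libraries from cells given isopropanol, and the octanoate group was 2 libraries from cells given 1 mM octanoate, a medium-chain fatty acid whose oxidation yields acetyl-CoA. Both treatments lasted 48 hours, and all cells were grown in the same serum-containing medium. The labels do not say whether the libraries of a group came from separate cultures, so p-values may cover technical spread alone, and results from a single line may not extend to other melanomas.

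A value for each library is not analysed here, because the authors' deposited table gives for each region a mean level in normalized units, a log2 fold change and its standard error (SE), and p-values for 1 comparison. Its header does not name the numerator of the fold change, so changes are called positive or negative and not gains or losses under octanoate. Depth of the libraries is unknown. Of the regions, 36436 carry an adjusted p below 1 in the authors' deposited table, all at a mean level of at least 18.44, and these are called tested regions. A region passed when its adjusted p was under 0.05. In the authors' deposited table the tested regions had a median log2 fold change of 0.32, so values are also given after this median was subtracted. More of the mark on each copy of a region and the mark on a larger share of cells cannot be told apart.

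The cell line was checked against marker genes. The start region of a gene was its region at distance 0 with the highest level, otherwise the nearest one within 10 kb. Among 6 genes of the melanocyte lineage, MITF, SOX10 and PMEL had a region at distance 0 in the authors' deposited table, with mean levels from 98.4 to 774. TYR had one at 7.91 kb (32.0), and the regions of MLANA and DCT lay farther away, with mean levels of at most 48.5 and 6.79 in the authors' deposited table. All 4 genes of dedifferentiated melanoma (AXL, NGFR, EGFR, JUN) had a region at distance 0 in the authors' deposited table. Their mean levels ran from 50.5 at EGFR to 516 at AXL. Of 7 markers of other cell types, 6 also had regions. Among them, EPCAM (50.5), KRT5 (55.8), KRT14 (22.8), CD3E (6.19) and PECAM1 (3.74) had a start region at the mean level given, the one of EPCAM at distance 0, in the authors' deposited table. Regions assigned to PTPRC, PECAM1 and EPCAM at any distance reached mean levels of 408, 164 and 144 in the authors' deposited table, above those of MLANA, TYR and DCT, and ALB had no region.

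At the 8 supply genes, H3K27ac passed the test in 1 region, which lay within ACSS2, the gene of the cytosolic and nuclear acetyl-CoA synthetase. In the authors' deposited table its log2 fold change was 1.05 ± 0.31 (SE), a ratio of 2.07. None of the other 16 tested regions of these genes passed, and no region passed in the negative direction. The start regions of all 8 genes had positive values in the authors' deposited table, from 0.14 at SLC25A1, the mitochondrial citrate carrier, to 0.64 at ACSS2. Of all 9996 tested regions at distance 0 from a gene start, 98.1% were positive in the authors' deposited table, so the sign does not set these genes apart. The order of the routes at the start regions, as defined above, put the citrate genes lowest. However, the 95% interval of every difference between genes included 0.

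Of the 33 regions, 17 were tested, and 16 of these 17 had a positive fold change, against 87.3% of all tested regions, in the authors' deposited table. The share of the 17 that passed, 5.88%, rests on 1 region and stands beside 1.67% of all tested regions of the authors' deposited table (608 regions). In the positive direction the background was 1.65%, with 601 regions in the authors' deposited table. At an unadjusted p under 0.05, 4 of the 17 regions stood beside 18.4% of tested regions in the authors' deposited table, and the members' share of 23.5% is near that background. In the authors' deposited table the log2 fold changes had a median of 0.36 over the members' tested regions and 0.25 over all 33, against 0.32 and 0.28 over the same classes of the whole table. After subtraction of the median, 0 of the 17 regions passed, against 0.124% of tested regions, in a two-sided normal test with the authors' SE and Benjamini-Hochberg adjustment. An unadjusted p under 0.05 in this test was found for 2 of the 17, the ACSS2 region at 14.0 kb (0.0184) and a negative region of ACSS1 (0.0252).

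**Figure D1:**
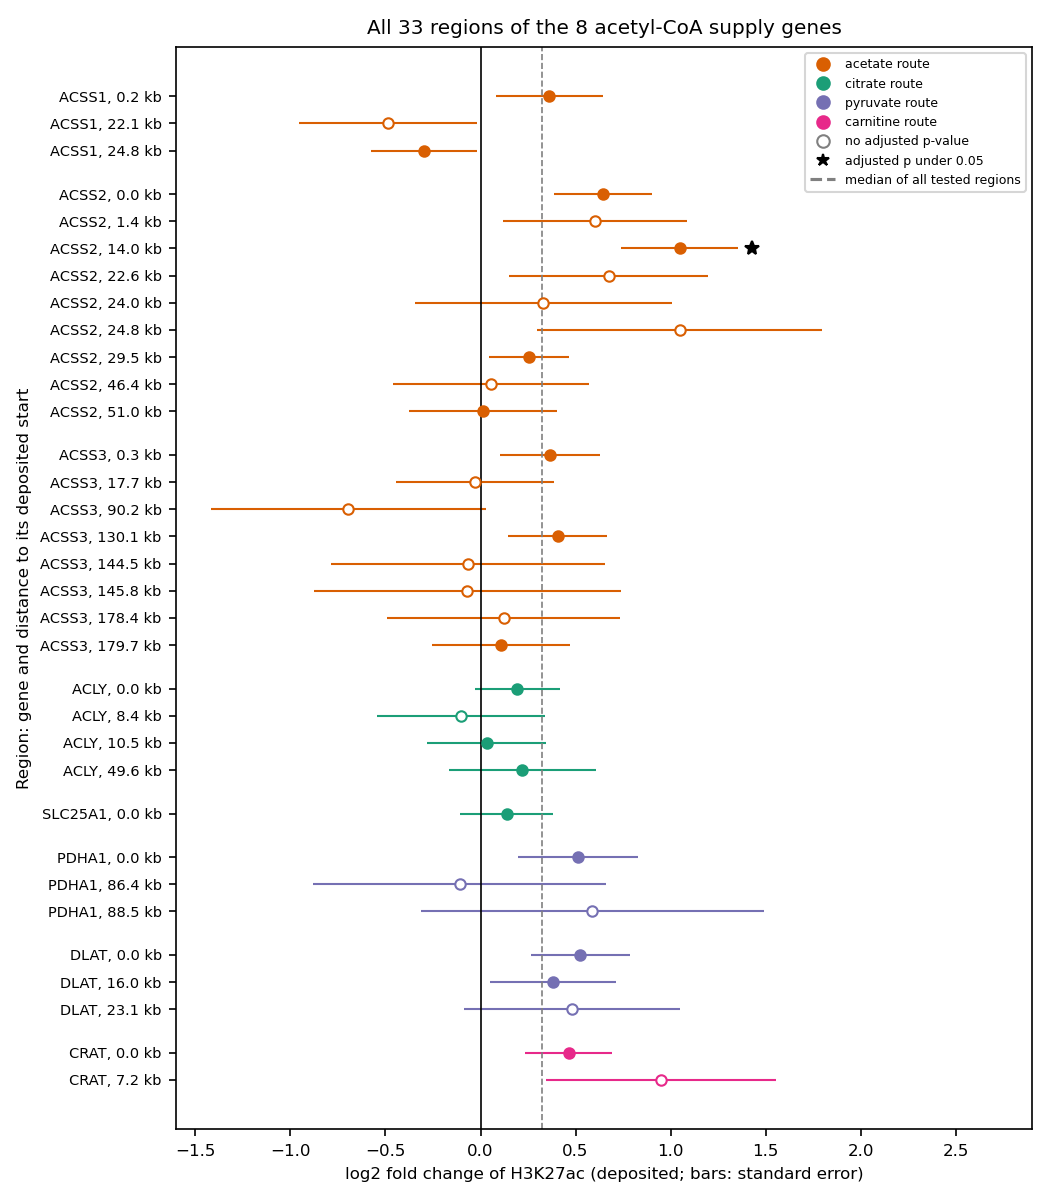
Log2 fold change of H3K27ac (x axis) at each of the 33 regions, listed by gene and by distance in kb from the deposited start (y axis), with bars of 1 SE. Filled points are the 17 tested regions, open points have no adjusted p, the dashed line is the median of all tested regions (0.32), and the star marks the ACSS2 region at 14.0 kb, the single one that passed.

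The acetate route was examined first. ACSS2 makes acetyl-CoA from acetate in the cytosol and nucleus, and ACSS1 does so in mitochondria. ACSS3 is a mitochondrial member of the same enzyme family with a preference for propionate. Together the 3 genes had 20 of the 33 regions in the authors' deposited table, 9 of them tested, with a median log2 fold change of 0.36 over the tested regions. Coordinates are those of the files, whose build is hg38 per the submitters' processing notes, and gene positions are those of RefSeq on GRCh38.p14.

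RefSeq gives ACSS2 (gene ID 55902, chromosome 20, 34874989 to 34927959) a pair of starts. Their upstream windows of 250 bases are shown because H3K27ac regions of different level covered each start. Capitals mark GC boxes (GGGCGG or its reverse complement CCGCCC), bound by SP1, and CCAAT boxes (CCAAT or ATTGG), bound by NF-Y.
ACSS2 upstream start, chr20:34874739-34874988, plus strand: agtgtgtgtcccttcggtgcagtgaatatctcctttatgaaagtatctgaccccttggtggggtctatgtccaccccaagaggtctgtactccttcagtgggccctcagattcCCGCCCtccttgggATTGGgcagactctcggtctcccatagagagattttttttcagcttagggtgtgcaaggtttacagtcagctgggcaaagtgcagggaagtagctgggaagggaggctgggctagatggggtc
ACSS2 downstream start, chr20:34876362-34876611, plus strand: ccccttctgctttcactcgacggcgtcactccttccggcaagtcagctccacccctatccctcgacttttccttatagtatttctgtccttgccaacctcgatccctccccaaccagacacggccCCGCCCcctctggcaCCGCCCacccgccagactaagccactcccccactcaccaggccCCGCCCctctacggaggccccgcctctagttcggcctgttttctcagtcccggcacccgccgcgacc

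The region over the downstream start (chromosome 20, 34875715 to 34877729) had a mean level of 68.7 in the authors' deposited table. Its log2 fold change was 0.64 ± 0.26 (SE) in the authors' deposited table, with an unadjusted p of 0.0127 and an adjusted one of 0.169. It did not pass, and among the 9996 tested regions at gene starts its fold change had a percentile of 90.5. The region over the upstream start (34874444 to 34875040) was weak, with a mean level of 12.6 in the authors' deposited table, no adjusted p and a log2 fold change of 0.60 ± 0.48 (SE). The values at the starts differed by less than their errors.

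The region that passed lay inside the RefSeq gene, 14.0 kb downstream of the deposited start (chromosome 20, 34890445 to 34892527). Exons and introns are not annotated here. Its mean level in the authors' deposited table was 39.2, or 18.8 per kb of width, against 34.1 per kb at the start region. The log2 fold change of 1.05 ± 0.31 (SE) had an unadjusted p of 0.000648 and an adjusted p of 0.0442 in the authors' deposited table. By p-value this region ranked 533 among the 36436 tested regions of the authors' deposited table. After subtraction of the median its log2 fold change was 0.72, with an adjusted p of 0.665 computed from the authors' deposited table. Adjustment over all 91107 regions gave 0.109, so the pass depended on which regions were adjusted together.

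Further into ACSS2 the values of the tested regions were smaller. A broad region 29.5 kb downstream (34905890 to 34910897), the one of ACSS2 with the highest mean level (146), had a log2 fold change of 0.25 ± 0.21 (SE) in the authors' deposited table. The region over the far end of the gene, 51.0 kb downstream, had 0.01 ± 0.39 (SE) in the authors' deposited table. Neither passed, with adjusted p of 0.465 and 0.985 in the authors' deposited table. The region at 14.0 kb was higher than the one at 29.5 kb by 0.79 ± 0.37 (SE; 95% interval 0.06 to 1.52) and higher than the start region by 0.41 ± 0.40 (SE; -0.38 to 1.19). A difference between regions does not depend on the scaling between libraries, and the errors were combined as independent. These pairs within ACSS2 were compared after the call was known, so the intervals are a description. The other 4 regions of ACSS2 had mean levels of at most 11.3 in the authors' deposited table and no adjusted p. Their log2 fold changes were 0.67 ± 0.52 (SE) at 22.6 kb, 0.33 ± 0.68 at 24.0 kb, 1.05 ± 0.75 at 24.8 kb and 0.05 ± 0.52 at 46.4 kb. All 9 regions of ACSS2 were positive in the authors' deposited table, against 73.7% of all regions.

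ACSS1 (gene ID 84532, chromosome 20, 25006237 to 25058139, minus strand) also had a pair of RefSeq starts under H3K27ac. Their windows are shown because the regions over them had fold changes of opposite sign.
ACSS1 upstream start, chr20:25058140-25058389, minus strand: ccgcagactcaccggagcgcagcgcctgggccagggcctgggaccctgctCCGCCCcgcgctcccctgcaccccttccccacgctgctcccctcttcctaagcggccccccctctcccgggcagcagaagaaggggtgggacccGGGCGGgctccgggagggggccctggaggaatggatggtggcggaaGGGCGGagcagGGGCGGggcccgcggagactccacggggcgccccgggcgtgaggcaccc
ACSS1 downstream start, chr20:25032707-25032956, minus strand: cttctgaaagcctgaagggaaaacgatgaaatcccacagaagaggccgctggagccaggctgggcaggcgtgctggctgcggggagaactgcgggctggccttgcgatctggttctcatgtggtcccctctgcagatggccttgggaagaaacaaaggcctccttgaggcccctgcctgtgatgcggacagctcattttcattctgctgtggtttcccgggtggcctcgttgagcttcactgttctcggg

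The region over the upstream ACSS1 start (25056582 to 25058780), 0.201 kb from the deposited start, had a log2 fold change of 0.36 ± 0.28 (SE) at a mean level of 70.0 in the authors' deposited table. The region over the downstream start (25031810 to 25034175) had -0.30 ± 0.28 (SE) at a level of 58.2 in the authors' deposited table, the single negative value among the 17 tested regions. Neither passed, with adjusted p of 0.438 and 0.511 in the authors' deposited table. The upstream value was higher by 0.66 ± 0.39 (SE; 95% interval -0.11 to 1.43), an interval that includes 0. A weak neighbour of the downstream start (25036143 to 25036867) had -0.49 ± 0.47 (SE) in the authors' deposited table, with no adjusted p. The upstream window held 4 GC boxes and a GC content of 77.2%, and the downstream window held none of the motifs searched at 59.2%.

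ACSS3 (gene ID 79611, chromosome 12, 81077871 to 81261210) had 8 regions along the whole gene. The region over its start (81077532 to 81081092) had a log2 fold change of 0.36 ± 0.26 (SE) in the authors' deposited table, at a mean level of 79.5. The region 130.1 kb into the gene (81207310 to 81211637) had 0.41 ± 0.26 (SE) in the authors' deposited table, and the region at 179.7 kb, also listed with PPFIA2, had 0.11 ± 0.36 (SE). None of these 3 tested regions passed, with adjusted p from 0.364 to 0.855 in the authors' deposited table. The other 5 regions had mean levels from 3.97 to 17.6 and log2 fold changes from -0.69 to 0.12 in the authors' deposited table.

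**Figure D2:**
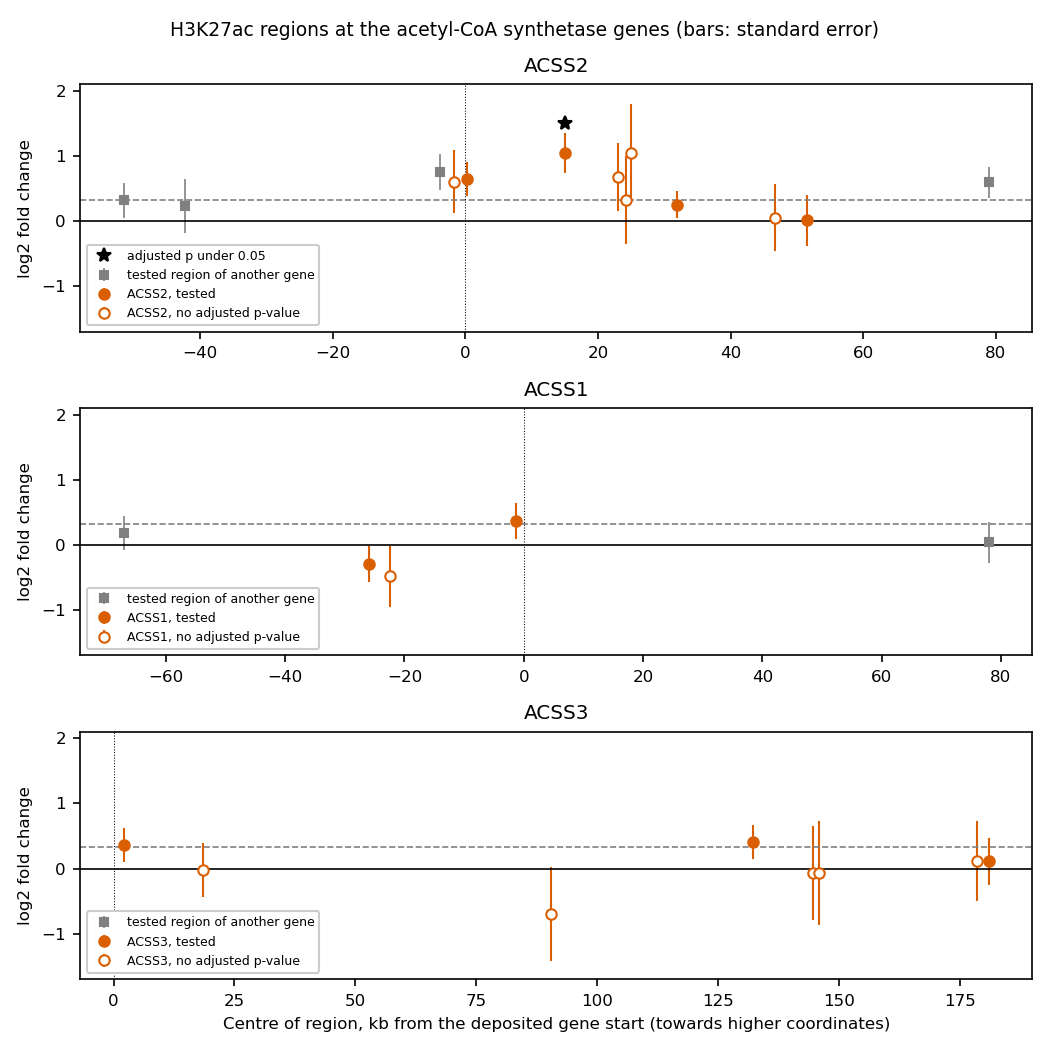
Log2 fold change of H3K27ac (y axis, bars of 1 SE) by position of the region's centre in kb from the deposited start (x axis) at ACSS2, ACSS1 and ACSS3. Orange points are the gene's own regions (open without an adjusted p), grey squares are tested regions of other genes within 100 kb, the dashed line is the median of all tested regions, and the star marks the region at 1.05 that passed.

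The citrate route had the lowest values at the start regions, which were taken by the deposited starts. ACLY, ATP-citrate lyase, splits citrate to acetyl-CoA outside mitochondria, and SLC25A1 carries citrate out of them. Their 250-base upstream windows are shown as those of the lowest start regions.
ACLY, chr17:41919023-41919272, minus strand: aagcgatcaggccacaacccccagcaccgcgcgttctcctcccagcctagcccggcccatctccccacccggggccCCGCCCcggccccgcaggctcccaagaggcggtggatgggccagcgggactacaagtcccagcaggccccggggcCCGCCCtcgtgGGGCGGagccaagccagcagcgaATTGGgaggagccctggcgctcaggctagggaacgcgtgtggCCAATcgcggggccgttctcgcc
SLC25A1, chr22:19178737-19178986, minus strand: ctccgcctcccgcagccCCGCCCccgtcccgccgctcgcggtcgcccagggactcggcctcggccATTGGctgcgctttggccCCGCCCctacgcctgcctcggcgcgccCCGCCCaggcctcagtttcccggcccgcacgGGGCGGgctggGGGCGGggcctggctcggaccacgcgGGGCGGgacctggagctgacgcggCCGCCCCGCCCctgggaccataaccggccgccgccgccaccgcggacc

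The ACLY start region (gene ID 47, chromosome 17, 41913974 to 41920190) had a mean level of 168 and a log2 fold change of 0.19 ± 0.22 (SE) in the authors' deposited table. It did not pass, with an adjusted p of 0.591 in the authors' deposited table. RefSeq places ACLY at 41866917 to 41930545, so this region lay inside the gene. The upper end of ACLY, which is read on the minus strand, was covered by a region listed with TTC25 (41928893 to 41931986). That region, not among the 33, had a log2 fold change of 0.52 ± 0.24 (SE) and an adjusted p of 0.230 in the authors' deposited table. The SLC25A1 region (gene ID 6576, chromosome 22, 19170633 to 19180060) covered the whole RefSeq gene of 3156 bases. It had the highest mean level of the 33 regions, 202, and a log2 fold change of 0.14 ± 0.24 (SE) with an adjusted p of 0.730 in the authors' deposited table. The same region was also listed with CLTCL1, at 111655 bases. With the median subtracted, these start regions stood at -0.13 for ACLY and -0.19 for SLC25A1, each less than its SE.

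The other 3 ACLY regions lay inside the gene, and the values in the authors' deposited table were 0.03 ± 0.31 (SE) at 10.5 kb, 0.22 ± 0.39 at 49.6 kb and -0.10 ± 0.44 at 8.4 kb, the last without an adjusted p. None of the 4 tested citrate regions had an unadjusted p under 0.05 in the authors' deposited table.

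The pyruvate route was represented by the pyruvate dehydrogenase complex, which makes acetyl-CoA from pyruvate in mitochondria. PDHA1 encodes the alpha subunit of its E1 enzyme and DLAT its E2 enzyme, which carries the acetyl transfer. The PDHA1 start region (gene ID 5160, chromosome X, 19343360 to 19345190) had a mean level of 35.6 in the authors' deposited table, the lowest of the 8 start regions. Its log2 fold change was 0.51 ± 0.31 (SE) with an adjusted p of 0.345 in the authors' deposited table. A pair of weak regions 86.4 and 88.5 kb from PDHA1, outside the RefSeq gene, had -0.11 ± 0.77 (SE) and 0.59 ± 0.90 in the authors' deposited table. Errors of that size leave their sign undetermined.

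The DLAT start region (gene ID 1737, chromosome 11, 112024395 to 112026688) had a mean level of 64.3 and a log2 fold change of 0.52 ± 0.26 (SE) in the authors' deposited table. Its unadjusted p was 0.0449 and its adjusted one 0.261 in the authors' deposited table, so it did not pass. Regions inside the gene had 0.38 ± 0.33 (SE) at 16.0 kb and 0.48 ± 0.57 at 23.1 kb in the authors' deposited table, the second without an adjusted p. The DLAT window is shown because it held none of the motifs searched, in contrast to SLC25A1.
DLAT, chr11:112025158-112025407, plus strand: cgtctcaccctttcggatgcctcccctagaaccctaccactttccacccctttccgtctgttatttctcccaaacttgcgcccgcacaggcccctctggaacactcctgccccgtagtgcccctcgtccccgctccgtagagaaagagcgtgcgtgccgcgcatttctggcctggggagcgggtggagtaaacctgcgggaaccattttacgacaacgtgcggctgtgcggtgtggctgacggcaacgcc

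On the carnitine route, CRAT, carnitine acetyltransferase, moves acetyl groups between CoA and carnitine. Its start region (gene ID 1384, chromosome 9, 129109606 to 129112968) was shared with PPP2R4, at a distance of 0 from both gene starts in the authors' deposited table. The mean level was 135 and the log2 fold change 0.46 ± 0.23 (SE) in the authors' deposited table. An unadjusted p of 0.0419 became 0.256 after adjustment in the authors' deposited table. Because the region covers both starts, its value cannot be given to CRAT alone. A weak region 7.15 kb into CRAT had a log2 fold change of 0.95 ± 0.61 (SE) in the authors' deposited table, with no adjusted p.

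The routes were then compared through the 8 start regions, in 28 pairs. The largest difference was between ACSS2 and SLC25A1, 0.51 ± 0.36 (SE; 95% interval -0.19 to 1.20). ACSS2 was above ACLY by 0.45 ± 0.34 (SE; -0.22 to 1.12), and DLAT above ACLY by 0.33 ± 0.34 (SE; -0.34 to 1.01). For PDHA1 and SLC25A1 the difference was 0.37 ± 0.40 (SE; -0.40 to 1.15), and for CRAT and ACLY 0.27 ± 0.32 (SE; -0.36 to 0.89). Within the acetate route, ACSS2 was above ACSS1 by 0.28 ± 0.38 (SE; -0.47 to 1.03). ACLY was above SLC25A1 by 0.06 ± 0.33 (SE; -0.59 to 0.71), and DLAT above PDHA1 by 0.01 ± 0.41 (SE; -0.79 to 0.81). All 28 intervals included 0, so no neighbours in the order ACSS2, DLAT, PDHA1, CRAT, ACSS3, ACSS1, ACLY, SLC25A1 were distinguished, nor were its ends.

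The precision of the authors' deposited table limits single calls in the same way. The largest unadjusted p that passed was 0.000831, so with its SE the ACLY start region would have needed a log2 fold change of 0.75 and the PDHA1 start region 1.05 to pass.

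Width went along with part of the order of the genes. Start regions of ACLY (6216 bases) and SLC25A1 (9427 bases) were the widest of the 8, and those of PDHA1 (1830 bases) and ACSS2 (2014 bases) the narrowest. That of ACSS1 (2198 bases) was narrower than those of CRAT (3362 bases) and ACSS3 (3560 bases) but stood below both in the order. Over all 9996 tested start regions of the authors' deposited table, the median log2 fold change was 0.51 in the narrowest decile by width and 0.30 in the widest. Set against its own decile, ACSS2 was 0.19 above the median of 0.45, DLAT 0.13 above 0.39 and CRAT 0.13 above 0.34. SLC25A1 was 0.16 below its median of 0.30 and ACLY 0.09 below 0.29. PDHA1 was 0.06 above, ACSS3 0.03 above and ACSS1 0.03 below. All 8 departures were smaller than the SE of the region. The median level also rose, from 28.9 in the narrowest decile to 260 in the widest, so width and level cannot be told apart. The part of either in the order of the genes was not tested. Regions at starts passed in 0.86% of cases in the authors' deposited table, and none of the 8 did, while 3 of the 8 (ACSS2, CRAT and DLAT) had an unadjusted p under 0.05, against 19.2%.

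**Figure D3:**
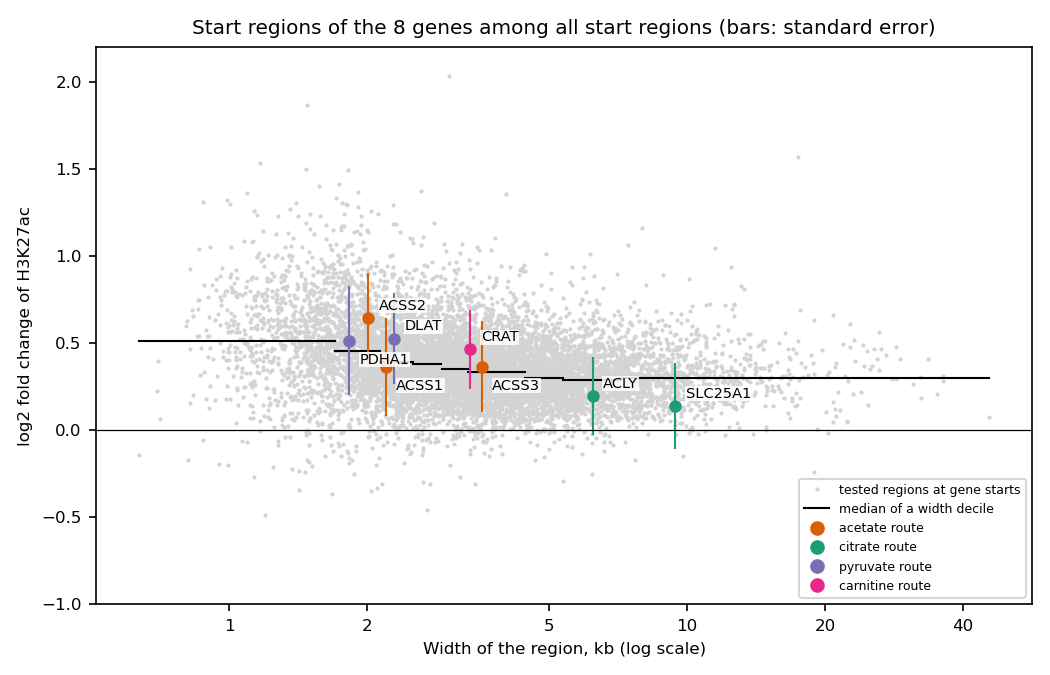
Log2 fold change of H3K27ac (y axis) against width of the region in kb (x axis, log scale) for the 9996 tested regions at gene starts (grey), with black lines at the median of each width decile. Coloured points with bars of 1 SE are the start regions of the 8 genes, which run from ACSS2 at 0.64 among narrow regions to SLC25A1 at 0.14 among wide ones.

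Levels per kb of width take the different widths of the regions into account. The start region of CRAT, shared with PPP2R4, had the highest, 40.3 per kb in the authors' deposited table, with a percentile of 95.2 among start regions. This level cannot be given to CRAT alone. ACSS2 followed at 34.1 and ACSS1 at 31.8. DLAT had 28.1, ACLY 27.0, ACSS3 22.3, SLC25A1 21.4 and PDHA1 19.4 per kb in the authors' deposited table. The median of the 8 was 27.5 per kb, near the 25.8 of all tested start regions of the authors' deposited table. The mean level has no spread between libraries here, so neighbours in this order are not separated.

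Sequence windows were found for 6 of the 8 genes, 9 windows in all, from RefSeq on GRCh38.p14; ACSS3 and CRAT were not among them. Motifs were sought on both strands in the 250 bases before each start. GC boxes were present in 7 of the 9 windows, against 42.6% of 35116 RefSeq windows, and CCAAT boxes in 5 of 9, against 32.0%. The GC content of the 9 windows ran from 53.6% to 81.6%, against a median of 58% over all windows. The part of GC content in the number of GC boxes was not tested. Windows of the same gene overlap for ACLY, so they are not separate counts. SLC25A1 had 8 GC boxes, of which a pair overlap in the longest run of capitals, and a GC content of 81.6%. PDHA1 had 2 GC boxes and 1 CCAAT box. The E-box CACGTG (6.34% of all windows), the sterol element TCACNCCAC (0.883%), the NRF1 motif GCGCANGCG (6.56%) and the TATA box TATAAA (10.7%) were in none of the 9 windows. These letters describe the windows and show no binding.

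Other genes of the pathway, 43 in 6 lists, were read in the same way. Their 285 regions in the authors' deposited table included 107 tested ones, of which 2 passed, both positive, or 1.87%, near the background of 1.67%. An unadjusted p under 0.05 was found for 17 of the 107 in the authors' deposited table, or 15.9%, against 18.4%. Of the 40 tested start regions, all were positive, against 98.1% of all tested regions at distance 0. None passed, against 0.86% of those regions, and 5 had an unadjusted p under 0.05, against 19.2%. The median was 0.32 against 0.35 for all start regions of the authors' deposited table. The same values over the 8 supply genes were 0 passing and a median of 0.41.

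Among 7 further genes listed with the acetate route, none of 15 tested regions passed in the authors' deposited table. An unadjusted p under 0.05 was reached by 4 of the 15, 3 of them positive, or 26.7%, against 18.4% of all tested regions. Their tested start regions ran from 0.29 ± 0.28 (SE) at AACS, acetoacetyl-CoA synthetase, to 0.74 ± 0.39 at ALDH2, mitochondrial aldehyde dehydrogenase, in the authors' deposited table. ACOT12, an acetyl-CoA hydrolase, had a weak untested region within 10 kb of its start, with -0.68 ± 0.93 (SE) in the authors' deposited table. Of 7 further citrate genes, 1 of 17 tested regions passed, 37.0 kb from the start of MDH2, mitochondrial malate dehydrogenase. Its log2 fold change was 0.83 ± 0.22 (SE), with an adjusted p of 0.0262 in the authors' deposited table. An unadjusted p under 0.05 was found for 3 of the 17, or 17.6%, against 18.4% of all tested regions. The 1 that passed stands beside 1.67% of all tested regions. Start regions of these genes ran from 0.13 ± 0.24 (SE) at CS, citrate synthase, to 0.91 ± 0.33 at ACO1, cytosolic aconitase, in the authors' deposited table.

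Of 12 further pyruvate genes, none of 45 tested regions passed in the authors' deposited table, beside 1.67% of all tested regions. An unadjusted p under 0.05 was reached by 5 of the 45, 4 of them positive, or 11.1%, against 18.4% of all tested regions. The values at tested starts in the authors' deposited table ran from 0.02 ± 0.22 (SE) at PDP1, a pyruvate dehydrogenase phosphatase, to 0.54 ± 0.29 at LIPT1, a lipoyltransferase. For the 4 further carnitine genes none of 7 tested regions passed in the authors' deposited table. An unadjusted p under 0.05 was found for 1 of the 7, or 14.3%, against 18.4% of all tested regions. That region was the start of SLC25A20, the carnitine-acylcarnitine carrier. It had the highest start value of this list, 0.85 ± 0.27 (SE), with an adjusted p of 0.0746 in the authors' deposited table. The lowest was 0.09 ± 0.25 (SE) at CROT, carnitine octanoyltransferase, in the authors' deposited table.

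The thiolases and other sources of acetyl-CoA, 5 genes, had the highest median at starts, 0.51, in the authors' deposited table. Of their 6 tested regions 1 passed, 27.7 kb from the start of HADHB, a subunit of the mitochondrial trifunctional protein with thiolase activity. Its log2 fold change was 1.27 ± 0.27 (SE), with an adjusted p of 0.00208 in the authors' deposited table. The 1 that passed stands beside 1.67% of all tested regions. An unadjusted p under 0.05 was found for 4 of the 6, all positive, against 18.4% of all tested regions, in the authors' deposited table. The passing region and the start region of HADHB (unadjusted p 0.0126) were both among these 4. Shares over 6 regions of 5 genes are a description. This list overlaps genes whose values were known from earlier work on these data, so its median is a description. Its start values ran from 0.34 ± 0.24 (SE) at ACAA1, the peroxisomal thiolase, to 0.78 ± 0.32 at MLYCD, malonyl-CoA decarboxylase, in the authors' deposited table. Among 8 users of acetyl-CoA outside mitochondria none of 17 tested regions passed, beside 1.67% of all tested regions. An unadjusted p under 0.05 was found for 0 of the 17, against 18.4%. Start values of the users ran from 0.10 ± 0.22 (SE) at NAT10, an RNA acetyltransferase, to 0.51 ± 0.29 at NAA10, an N-terminal acetyltransferase, in the authors' deposited table. With the median subtracted, neither the MDH2 nor the HADHB region passed, with adjusted p of 0.711 and 0.145.

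**Figure D4:**
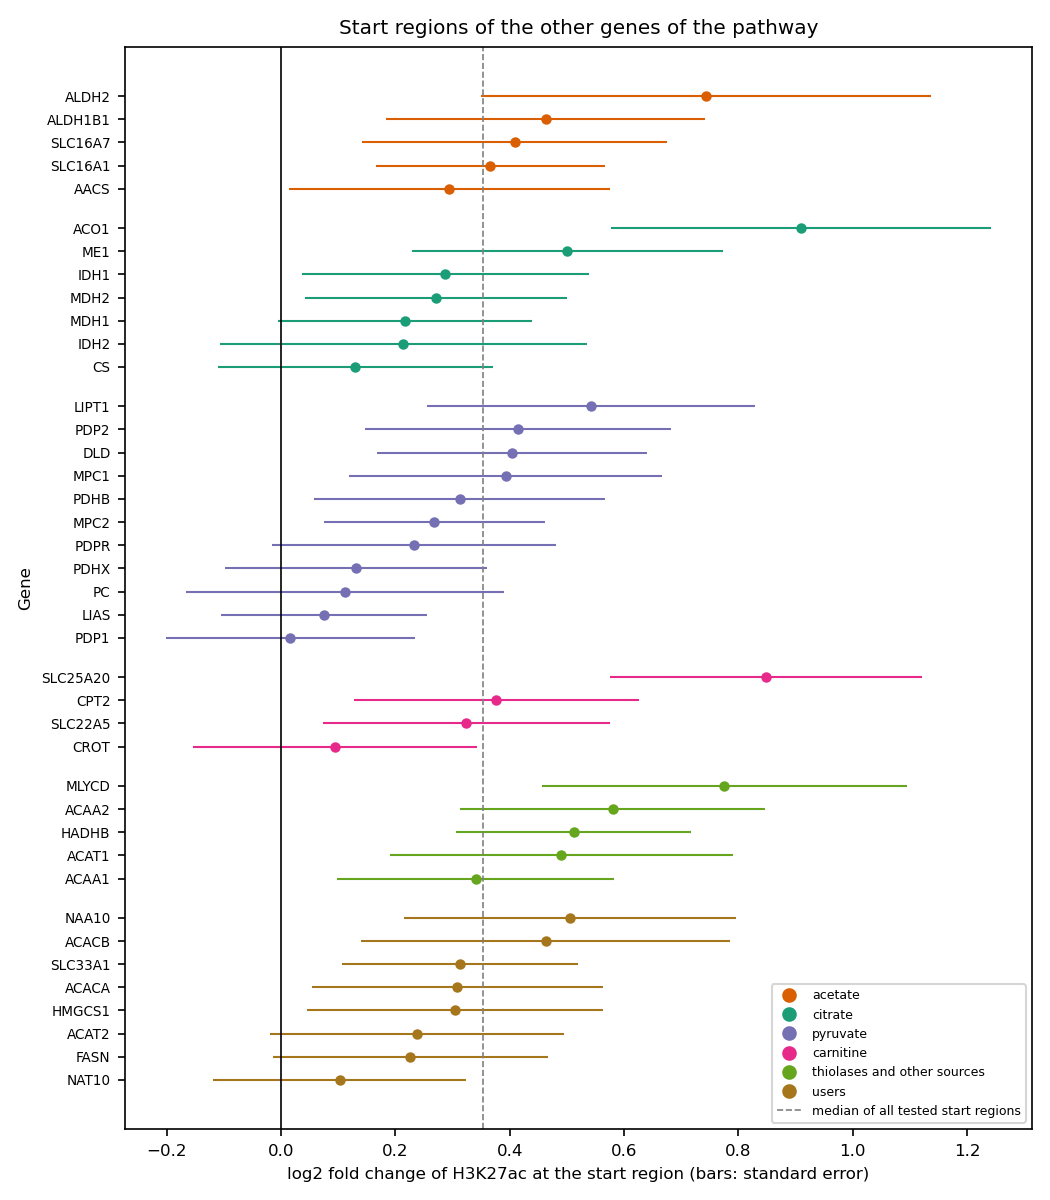
Log2 fold change of H3K27ac (x axis, bars of 1 SE) at the 40 tested start regions of other genes of the pathway (y axis), grouped by list, with a dashed line at the median of all tested start regions (0.35). All 40 points are positive, from 0.02 at PDP1 to 0.91 at ACO1, and none passed.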

How the data were processed

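H3K27ac was measured by chromatin immunoprecipitation and sequencing in 4 libraries of A375 cells, 2 per treatment, grouped by the treatment in the labels. Per the submitters' processing notes, the build was hg38 and the tools were Trim Galore, cutadapt, FastQC, Bowtie2, Picard, MACS2, featureCounts, DESeq2 and bedtools 2.29.1, with no role or order given. The deposited data are 1 table of the authors' comparison. Per the file headers it holds a mean level (a signal normalized by the authors), a log2 fold change with its standard error, a statistic (a score equal to their ratio), a p-value and adjusted p, and a distance to the assigned gene in bases. An adjusted p of 1 in the deposited table, given at every mean level up to 18.44, was read as not computed; Benjamini-Hochberg adjustment over the remaining 36436 regions returned the authors' adjusted p. Duplicate lines of a region were merged for the background. Columns of single libraries left out numbered 0, and depth is unknown.

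The planned test across libraries could not be run, so the authors' test across all regions was read. From it were computed the median-subtracted test, adjustment over all regions and over all 95312 lines, differences between regions with 95% normal intervals, ranks, and motif matches (Python 3.11.15, numpy 2.4.6, pandas 2.3.3, scipy 1.17.1). The median-subtracted test was tested on simulated data. The members, lists and rules were chosen with earlier results of these data known. From the citrate list, 1 gene is not reported here and was left out of the counts of the lists. A start region was the one at distance 0 with the highest level, otherwise the nearest within 10 kb. Named were all member regions, list genes with a passing region, the highest and lowest start regions of each list, and genes sharing a region with a member. Genes near the members named in the closing section were chosen after their values were seen, as were the comparisons by width.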

Additional observations from a re-analysis of the deposited data

How the results depend on the processing

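The ACSS2 region at 14.0 kb was the 1 member region that passed in the authors' deposited table. Only centring changed its log2 fold change, from 1.05 to 0.72 on the median of tested regions and to 0.70 on that of tested start regions. The other settings leave a fold change as it is, so its sign could not change there. No member region passed (0 regions, 0% of those tested) at a threshold of 0.01, with adjustment over all distinct regions or over all 95312 lines (adjusted p of 0.109 in both), or after centring on the median of tested regions or of tested start regions (0.665 and 0.698). Requiring also a fold change of 1 or more on the log2 scale left the pass in place, and without ACSS2, an alternative chosen after seeing the data, 0 passed. The thresholds and the centring act by construction. The 2 passing regions of the other pathway genes became 0 after centring. The start regions of ACLY and SLC25A1 changed sign after centring, to -0.13 and -0.19 on the median of tested regions and to -0.16 and -0.22 on that of tested start regions, by construction. The median over the members ran from 0.17 without ACSS2 to 0.49 over regions at distance 0 (which leaves out ACSS1 and ACSS3), and was 0.41 over 1 start region per gene, an alternative also chosen after seeing the data, and 0 of the 28 differences had an interval off 0 when the region of highest level or a weighted mean stood for a gene. Of the 45 results for single regions under an alternative, 36 kept direction and side, 5 lost the pass of ACSS2 and 4 changed sign. Settings other than centring could not change a sign, and a stricter threshold could not make a failed start region pass. The tally is therefore a description and no measure of robustness. No paired analysis was possible because values of single libraries were not analysed here. Likewise, other size factors, pseudocounts and leaving out single libraries were not run.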

Other observations

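Regions assigned to other genes within 100 kb of the members' starts were read as context, after the results above were known. Near ACSS2, none of 4 tested regions of other genes passed in the authors' deposited table, beside 1.67% of all tested regions. The region of GGT7, a gamma-glutamyltransferase family gene, lay 3.80 kb from the ACSS2 start on the side away from the gene and had a log2 fold change of 0.76 ± 0.28 (SE), with an adjusted p of 0.129 in the authors' deposited table. A region of GSS, glutathione synthetase, 78.9 kb from the start on the other side had 0.60 ± 0.24 (SE), with 0.167, in the authors' deposited table. A pair of NCOA6 regions, 42.2 and 51.5 kb from it on the side of GGT7, had 0.23 ± 0.41 (SE) and 0.32 ± 0.26 in the authors' deposited table. NCOA6 encodes a nuclear receptor coactivator. Over all 13 regions of other genes near ACSS2, tested or not, 9 were positive in the authors' deposited table, or 69.2%, against 73.7% of all regions.

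Near CRAT, 1 of 10 tested regions of other genes passed, beside 1.67% of all tested regions. The share over 10 regions rests on this 1 and is a description. The passing region was assigned to FAM73B, 51.1 kb from the CRAT start. Its log2 fold change was 1.11 ± 0.27 (SE), with an adjusted p of 0.0106 in the authors' deposited table and 0.378 after centring. Near ACLY (9 tested regions), DLAT (5), SLC25A1 (2) and ACSS1 (2), none passed in the authors' deposited table. PDHA1 and ACSS3 had no tested region of another gene within 100 kb in the authors' deposited table.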
